A study of Homo sapiens with 12 samples.

Results

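The response to phenobarbital (PB) was described in HepaRG cells that lack the human constitutive androstane receptor (CAR). HepaRG is a human hepatoma line that can differentiate into hepatocyte-like and biliary-like cells. Both libraries of knockout cells (labelled hCAR-KO, here KO) given PB were set against both libraries of KO cells given the solvent DMSO, 4 of the 12 RNA sequencing libraries of the series. All loci with at least 1 CPM (reads scaled to a common library size) in at least 2 of the 12 libraries were taken, 15792 of 15822. The series also holds KO cells given CITCO, a synthetic CAR agonist, and wild type (WT) cells given DMSO, PB or CITCO, with 2 libraries in each group. CAR is disrupted in both KO groups compared here, the controls included. The sources used here do not give the dose, the exposure time, the way CAR was disrupted or whether the KO cells are 1 clone. Whether the 2 libraries of a group are separate cultures is not labelled. A p-value here therefore weighs a change only against the spread of these libraries, possibly a technical spread.

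CAR (gene NR1I3) and the pregnane X receptor PXR (NR1I2) are nuclear receptors that bind DNA with the retinoid X receptor and switch on genes for the oxidation, conjugation and export of drugs. PB activates CAR indirectly, by acting on signalling at the epidermal growth factor receptor, and in human cells it is also a ligand of PXR. The enzymes concerned fall into cytochromes P450, which oxidise, transferases, which attach sugar, sulfate or glutathione, and transporters, which carry the products out of the cell.

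At the 15822 loci with values, the libraries held 54917960 and 65329045 reads (KO DMSO) and 64246430 and 63792730 reads (KO PB). These counts were recovered from the steps between low values. The levels below are the deposited CPM, in which the library size carries a normalization factor. Duplicates differed beyond counting noise, so none was a copy of the same values. That spread cannot tell separate cultures from technical repeats of 1 sample. NR1I3 transcript was present in KO cells, at 11 and 10.6 CPM with DMSO and 16.2 and 15.6 CPM with PB. The edited position is not known, so this level is no check of the genotype. All 14 tested hepatocyte markers were detected, together 6.89 to 6.98% of the signal with DMSO and 7.77 to 7.85% with PB. Their sums were 64100 and 62300 CPM with DMSO and 72170 and 73430 CPM with PB. The list holds CYP3A4, at 1080 and 1101 CPM and then 10410 and 10930 CPM, which made up nearly all of that rise. Biliary and progenitor markers came to 0.0775 to 0.0793% and 0.0695 to 0.0697%, with the biliary keratin KRT7 at 1.57 to 2.28 CPM and 1.51 to 1.59 CPM.

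The proximal promoters of the CYP3A genes are shown first, because this family had some of the largest rises and its members share a nuclear receptor element that differs in a few letters. RefSeq windows (GRCh38.p14, the 250 bases before each gene's start, 5′ to 3′ on the gene's strand) were searched on both strands for half-sites AGGTCA or AGTTCA as an everted repeat with a 6-base spacer (ER6; for example TGAACTNNNNNNAGGTCA), an element to which PXR and CAR are known to bind in CYP3A4. They were also searched for direct repeats with a 3-base (DR3; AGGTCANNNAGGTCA) or 4-base spacer (DR4; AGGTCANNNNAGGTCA) of the same half-sites. The 18-base stretches of the 4 genes follow, with exact half-sites in capitals.
CYP3A4 site: TGAACTcaaaggAGGTCA
CYP3A5 site: TGAACTcaaaagAGGTCA
CYP3A7 site: ttaactcaatggAGGTCA
CYP3A43 site: ggaaatcaaaggaggcca
Positions are counted from 1 at the 5′ end of the site and the CYP3A4 base is written first. CYP3A5 differs by G11A, in the spacer. CYP3A7 differs by G2T, in the first half-site, and by A10T, in the spacer. CYP3A43 differs by T1G, C5A and T16C, which touch both half-sites.

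The whole windows of CYP3A4, of the gene whose window is most like it among the other 3, and of the second gene with an exact ER6 follow, with the same capitals. CYP3A4 lies at chr7:99784185-99784434, CYP3A7 at chr7:99735197-99735446 and CYP3A5 at chr7:99679997-99680246, all on the minus strand.
CYP3A4: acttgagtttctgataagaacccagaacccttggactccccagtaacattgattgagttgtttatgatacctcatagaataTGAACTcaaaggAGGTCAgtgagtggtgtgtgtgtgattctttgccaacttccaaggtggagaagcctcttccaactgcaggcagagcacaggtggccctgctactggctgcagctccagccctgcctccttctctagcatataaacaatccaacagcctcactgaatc
CYP3A7: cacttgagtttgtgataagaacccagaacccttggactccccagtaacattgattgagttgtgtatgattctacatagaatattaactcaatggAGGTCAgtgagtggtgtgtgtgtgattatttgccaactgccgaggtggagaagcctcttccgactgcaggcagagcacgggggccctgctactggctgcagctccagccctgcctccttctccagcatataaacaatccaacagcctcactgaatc
CYP3A5: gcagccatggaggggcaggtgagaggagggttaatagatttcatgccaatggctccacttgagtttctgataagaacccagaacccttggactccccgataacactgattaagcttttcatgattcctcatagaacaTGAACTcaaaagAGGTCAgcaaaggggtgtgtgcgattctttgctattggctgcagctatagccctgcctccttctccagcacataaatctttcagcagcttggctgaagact
The window of CYP3A7 matched that of CYP3A4 at 94.8% of aligned bases, that of CYP3A5 at 84.4% and that of CYP3A43 at 70.9%. Gap positions, left out of these shares, numbered 2 for CYP3A7, 116 for CYP3A5 and 26 for CYP3A43. The site starts 169 bases before the start of CYP3A4, 168 before that of CYP3A7, 113 before that of CYP3A5 and 177 before that of CYP3A43. An exact ER6 was in 2 of the 9951 tested genes with a window of 300 bases (the 250 plus 50 after the start), 0.0201%, and in 0.022% of all 27305 windows. The 2 genes were CYP3A4 and CYP3A5. DR4 was in 1 tested gene, TLE6 (log2 change 0.26, uncalled), and DR3 in 0. The single half-site AGGTCA was in 10.4% of tested windows, 11% of those of genes called higher and 9.54% of those called lower. All of this describes letters in a short window. No match says nothing about elements farther away.

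PB changed 1099 of 15792 loci in KO cells (6.96%), by limma on log2(CPM + 0.5) at a Benjamini-Hochberg adjusted p under 0.05. Of these, 611 rose (3.87%) and 488 fell (3.09%). With every library scaled to the same total, 480 were higher and 707 lower. Every log2 change below is on that log2(CPM + 0.5) scale, where low genes appear to change less than they do. Most changes were small, since 897 of the 1099 were under 1.5-fold, 46 rises reached 2-fold (0.291%) and 13 falls did (0.0823%). The median change of all loci was 0.00 on the log2 scale, and the central 90% of loci lay between -0.27 and 0.29. Leaving out KO PB replicate 1 or 2 gave 523 or 532 calls, and leaving out KO DMSO replicate 1 or 2 gave 641 or 671. A core of 363 loci, 216 higher and 147 lower, was called in all 14 fits compared, the one used and others with 1 setting changed or 1 KO library left out. Genes named as risen or fallen belong to that core unless stated otherwise.

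**Figure D1:**
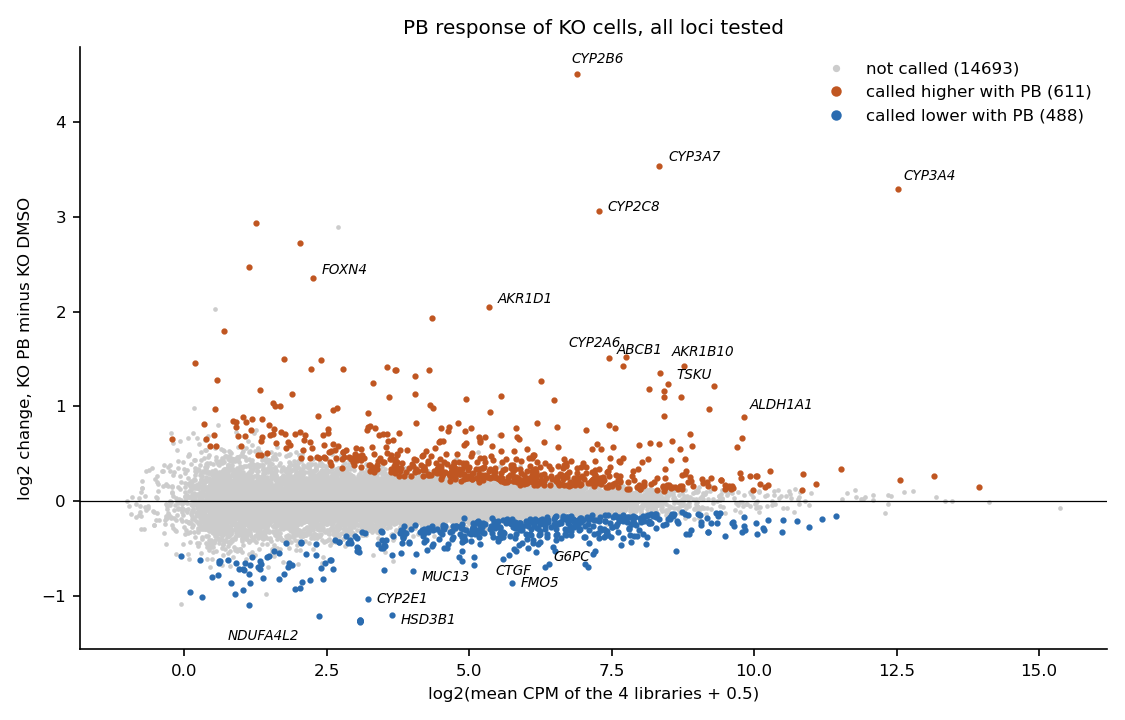
Each point is 1 of 15792 loci, with the log2 of its mean CPM (plus 0.5) in the 4 KO libraries on the x axis and its log2 change with PB on the y axis, coloured by call. CYP2B6, CYP3A7, CYP3A4 and CYP2C8 stand above 3 on the y axis, while no named fall goes below -1.3.

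The enzymes that oxidise drugs made the largest response. Of 18 tested P450s of families 1 to 3, 11 rose and 1 fell, with a median log2 change of 1.41 against 0.00 over all loci, and all 12 calls held in all 14 fits. Their summed signal went from 0.206 and 0.213% of a library with DMSO to 1.42 and 1.48% with PB.

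CYP2B6, which oxidises bupropion and efavirenz and is the usual marker of CAR activation, read 10.2 and 8.95 CPM with DMSO and 230 and 226 CPM with PB. The rise was 4.50 on the log2 scale (SE 0.058, adjusted p = 9.78e-20), the largest among loci with a mean of at least 5 CPM. Its neighbour CYP2B7P, a pseudogene copy of it, read 7.64 and 8.32 CPM and then 31.3 and 32.5 CPM (log2 1.94). CYP2A6, the nicotine oxidase, rose from 113 and 108 to 320 and 316 CPM (1.52), and CYP2A13 from 1.24 and 1.26 to 4.74 and 4.19 CPM (1.5). These genes are close copies, so that the counting could have moved reads between them. In each of them both PB libraries lay far above both DMSO libraries.

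CYP3A4, the main drug oxidase of adult liver, read 1080 and 1101 CPM with DMSO and 10410 and 10930 CPM with PB (log2 3.29, SE 0.035, adjusted p = 5.96e-21). CYP3A7, the fetal liver form, read 45.95 and 56.04 CPM and then 549.2 and 642.3 CPM (3.54, SE 0.078). CYP3A5 rose from 173.9 and 172.1 to 372.3 and 413.6 CPM (1.18), and CYP3A43 from 3.58 and 3.03 to 8.51 and 10.5 CPM (1.39). All 4 genes rose, with an exact ER6 in the window in CYP3A4 and CYP3A5 and with substitutions in it in CYP3A7 and CYP3A43. Reads can be shared here too, between CYP3A4 and CYP3A7 above all.

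On chromosome 10, CYP2C8, which oxidises paclitaxel, rose from 32.1 and 33.7 to 276 and 280 CPM (log2 3.06, SE 0.048). CYP2C18, of the same family, rose from 113 and 112 to 298 and 307 CPM (1.42). CYP2C19 was not analysed here. The one P450 of these families that fell was CYP2E1, which oxidises ethanol, from 13.2 and 11 to 5.86 and 5.47 CPM (-1.03, adjusted p = 2.53e-08). The dioxin-induced CYP1A1 read 0.268 and 0.54 CPM with DMSO and 0.969 and 0.352 CPM with PB, groups that overlapped (0.32, adjusted p = 0.502). CYP1A2 was likewise low and uncalled (0.15, adjusted p = 0.83).

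**Figure D2:**
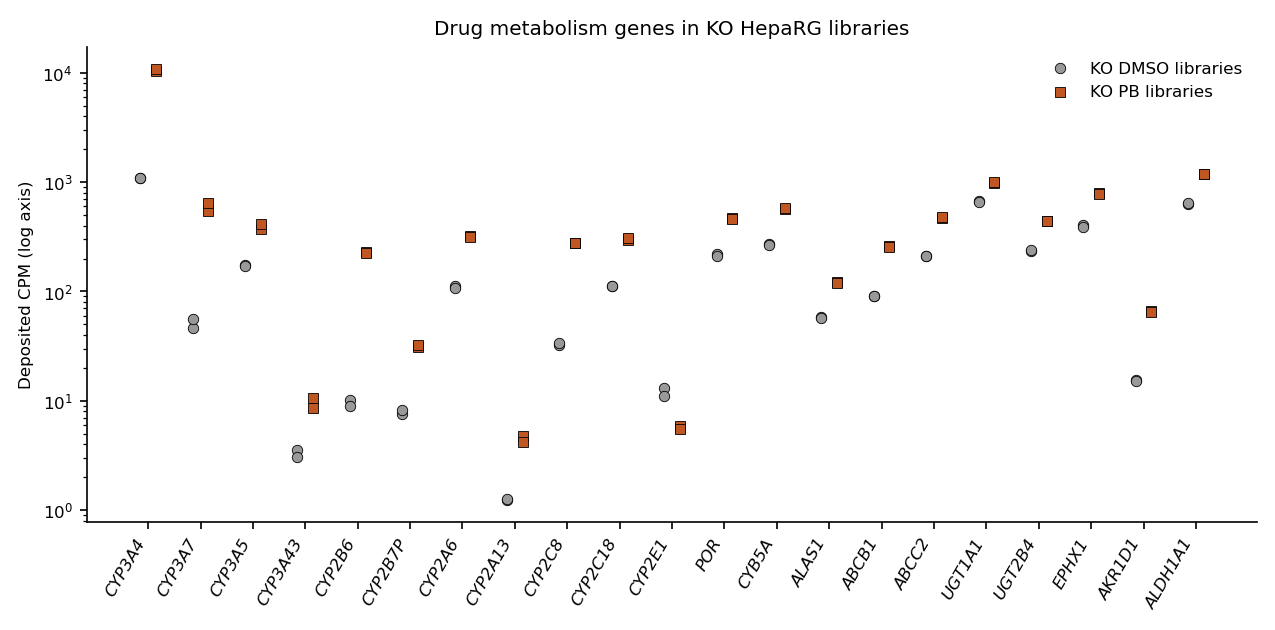
Deposited CPM of 21 drug metabolism genes on a log axis, with 1 point per library, grey circles for KO DMSO and orange squares for KO PB. The groups do not overlap in any gene shown, CYP2E1 is the only one lower with PB, and duplicates lie close together beside the distance between groups. Over all 15792 loci the groups did not overlap at 25.4% (higher with PB) and 25.3% (lower), so non-overlap alone is common.

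Most tested genes next to the CYP3A, CYP2A and CYP2B genes were uncalled. Within 300 kb of CYP3A4, by RefSeq gene order, AZGP1 (log2 0.45), a secreted lipid-mobilising protein, also rose. So did its pseudogene AZGP1P1 (0.71), which can share its reads. The other 11 tested neighbours ran from -0.16 to 0.14 and were uncalled. Within 300 kb of CYP2B6 no tested gene other than the CYP2A and CYP2B genes rose. The receptor tyrosine kinase AXL fell there by 0.24 (adjusted p = 0.00742, not called in all 14 fits).

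**Figure D3:**
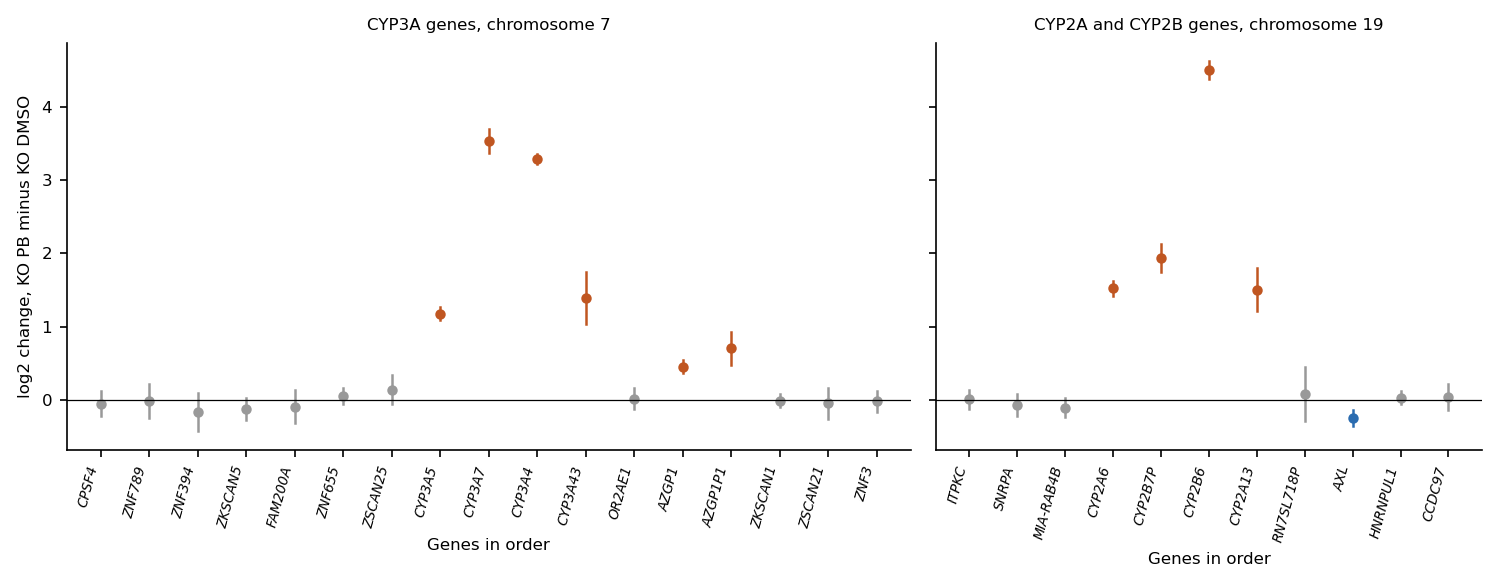
Log2 change with PB in KO cells (points) with its 95% interval (bars) for tested genes within 300 kb of CYP3A4 and of CYP2B6. Genes are in chromosome order, without scale of distance. Orange genes were called higher, blue ones lower and grey ones not called, and the P450 genes lie at 1.18 and above, all neighbours at 0.71 and below.

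Among P450s of other families, which mostly act on fatty acids, sterols and bile acids, 4 of 22 rose and 6 fell (median 0.00). CYP4A11, a fatty acid omega-hydroxylase, read 183 and 163 CPM with DMSO and 121 and 120 CPM with PB (log2 -0.52). Its near copy CYP4A22 fell by 0.57, CYP4F22, which makes skin ceramides, by 0.42, and CYP4F11, which hydroxylates long-chain fatty acids, rose by 0.28. Fewer of these calls were stable: 1 rise and 4 falls were made in all 14 fits.

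Some of the partners that a P450 needs rose: 2 of 10 electron donors (1 fell, median -0.02), 3 of 13 heme genes (median 0.08) and 4 of 10 genes that supply NADPH (median -0.02). POR, the reductase that passes electrons from NADPH to every microsomal P450, read 218.5 and 213.2 CPM with DMSO and 471.5 and 457.2 CPM with PB (log2 1.10, adjusted p = 7.18e-12). CYB5A, cytochrome b5, which gives some P450s their second electron, read 271 and 267 CPM and then 567 and 584 CPM (1.10, adjusted p = 9.94e-14). Both more than doubled on the CPM scale, and no other of the 10 electron donors tested was called higher (1 other had an unadjusted p under 0.05 in limma). CYB5R3, the reductase of cytochrome b5, fell by 0.23 (adjusted p = 0.00646), a call lost without KO DMSO replicate 1 (0.0888), KO PB replicate 1 (0.0507) or KO PB replicate 2 (0.088). Over all settings its adjusted p ran from 0.000933 to 0.106. ALAS1, which makes the first intermediate of heme, rose from 58.8 and 56.6 to 123 and 120 CPM (1.06). Of the heme genes 0 fell (1 at an unadjusted p under 0.05 in limma), and BLVRB, a biliverdin reductase, rose by 0.41. Of the NADPH genes 0 fell (2 before adjustment in limma). PGD (0.57) and TALDO1 (0.29) of the pentose phosphate pathway and IDH1 (0.45), the cytosolic isocitrate dehydrogenase, rose in all 14 fits, and TKT (0.21), also of the pentose phosphate pathway, in fewer.

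Part of the conjugating enzymes rose. Of 12 genes of glucuronidation 5 rose and 1 fell (median log2 0.21), 4 and 1 of them in all 14 fits. UGT2B4, which acts on bile acids, read 236 and 240 CPM with DMSO and 445 and 442 CPM with PB (0.90). UGDH, which makes the UDP-glucuronate that all these transferases use, rose by 0.62, and the locus of UGT1A1, the bilirubin transferase, by 0.58. Transcripts of the UGT1A genes share their last exons, so this locus may hold reads of several. UGT2B7, which acts on morphine, went the other way, from 86.4 and 100 CPM to 73.1 and 70.2 CPM (-0.37, adjusted p = 0.000437). Of 7 genes of sulfation 4 rose (median 0.27; 3 in all 14 fits), SULT2A1, which acts on steroids and bile acids, by 0.60, and 1 fell, SULT1B1, which acts on thyroid hormone, by 0.29. Beside it on chromosome 4 the pseudogene SULT1D1P fell by 0.73. Of 13 glutathione transferase genes 3 rose, led by GSTA1 (0.58), and 0 fell (0 before adjustment in limma), median 0.12. GSTA5, a near copy that was not placed in that list, read 0.351 and 0.762 CPM and then 4.61 and 8.6 CPM (2.72, SE 0.554, adjusted p = 0.00418). That call was lost without KO DMSO replicate 1 (0.0718) or KO PB replicate 2 (0.0975), with a constant prior variance (0.1) and with robust empirical Bayes (0.175), and was strongest in a fit of the 4 libraries compared alone (5.04e-06). Reads of the GSTA copies can be shared.

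Hydrolases, flavin monooxygenases and dehydrogenases moved both ways, with 12 of 46 higher and 4 lower (median 0.02), 7 and 3 of them in all 14 fits. EPHX1, the microsomal epoxide hydrolase, read 409.4 and 387.7 CPM with DMSO and 790.8 and 776.3 CPM with PB (log2 0.97). ALDH1A1, which oxidises retinal, read 636 and 641 CPM and then 1176 and 1187 CPM (0.89). HSD17B6, a steroid dehydrogenase, rose by 0.42. FMO5 read 69.1 and 68.6 CPM with DMSO and 38.5 and 36.9 CPM with PB (-0.86, adjusted p = 5.61e-09), and HSD3B1, of steroid hormone synthesis, 17.7 and 16.3 CPM and then 8.09 and 6.24 CPM (-1.20). ADH1B, the main hepatic alcohol dehydrogenase, fell by 0.33. With CYP2E1, a P450, and ADH1B, a dehydrogenase, both of these ethanol-oxidising genes were lower with PB.

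Targets of the oxidative stress factor NRF2 and aldo-keto reductases rose in 13 of 22 genes and fell in 0 (0 before adjustment in limma), median 0.38, with 11 rises in all 14 fits. AKR1D1, which reduces the steroid ring in bile acid synthesis, read 15.5 and 15.3 CPM with DMSO and 65.8 and 64.4 CPM with PB (log2 2.04, adjusted p = 2.36e-12). AKR1B10, a reductase of retinal and other aldehydes, read 184.5 and 183.4 CPM and then 471 and 470.9 CPM (1.35). AKR1C2 rose by 1.21, AKR1C1 by 0.67 and AKR1C4 by 0.49, although AKR1C1 and AKR1C2 are near-identical and can share reads. GPX2, a glutathione peroxidase, rose by 1.27, and SLC7A11, which imports cystine for glutathione, by 0.82. GCLM (0.40), which joins glutamate and cysteine, and SRXN1 (0.55), which repairs peroxiredoxins, rose too.

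Of 20 efflux transporters 9 rose and 0 fell (1 before adjustment in limma), median 0.19, with 7 rises in all 14 fits. ABCB1, the multidrug pump P-glycoprotein, read 90.3 and 90.5 CPM with DMSO and 258 and 257 CPM with PB (log2 1.51, adjusted p = 4.08e-14). ABCB4, the phospholipid exporter next to it on chromosome 7, read 61.95 and 62.36 CPM and then 61.76 and 63.61 CPM (0.01, 95% interval -0.10 to 0.12, adjusted p = 0.942). ABCC2, which exports conjugates into bile, rose by 1.16, and the cation exporter SLC47A1 by 0.62. ABCG5 (0.50) and ABCG8 (0.64), which together pump sterols into bile, both rose. SLC51B, a subunit of the basolateral bile acid exporter, rose from 0.117 and 0.0969 to 1.16 and 1.19 CPM (1.46), so that it was close to undetected with DMSO. Of 22 uptake carriers 5 rose and 2 fell (median 0.12), 4 and 1 of them in all 14 fits. SLC5A12, a lactate carrier, rose by 1.10, SLC16A9, a carnitine and urate carrier, by 0.71, and the amino acid carrier SLC38A4 by 0.55. SLC38A2, which takes up neutral amino acids, fell from 523 and 519 to 405 and 412 CPM (-0.35).

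The receptors themselves moved little. Of 19 xenobiotic receptors and partners 2 rose and 1 fell (median -0.05), 1 and 1 of them in all 14 fits. NR1I3 transcript rose by 0.54 (adjusted p = 0.000501), with the values given above. NR1I2, which encodes PXR, read 25.2 and 24.8 CPM with DMSO and 22.9 and 24.1 CPM with PB (-0.09, adjusted p = 0.545). EGFR, the growth factor receptor, fell from 249 and 241 to 205 and 195 CPM (-0.29, adjusted p = 9.16e-05). NR0B2, the repressor SHP, read 1.05 and 1.03 CPM and then 0.68 and 0.528 CPM (-0.48, adjusted p = 0.0797). Of 28 liver transcription factors 3 rose and 0 fell (1 before adjustment in limma), median 0.08, but 1 rose in every fit with 1 KO library left out and in all 14 fits. CREB3L3, a factor of the fasting response, read 72.6 and 63.9 CPM and then 118 and 118 CPM (0.79). HNF4A, the main hepatocyte factor, was uncalled (0.12, adjusted p = 0.136).

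In bile acid synthesis and its FGF19 feedback, 8 of 21 genes rose and 2 fell (median 0.08), with 4 rises and 0 falls in all 14 fits. AKR1D1 had the largest rise. SLC27A2, a very long-chain acyl-CoA synthetase, read 18.4 and 20.5 CPM with DMSO and 41.1 and 42 CPM with PB (log2 1.08), and SLC27A5, which activates bile acids for conjugation, 18.6 and 17.5 CPM and then 30.7 and 30.1 CPM (0.74). Cholesterol synthesis stayed near the background, with 1 of 23 higher and 1 lower (median 0.01), the fall lost with any 1 KO library left out.

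Fatty acid genes split. Of 25 genes of synthesis and storage 6 rose and 4 fell (median 0.03), and of 28 genes of oxidation and ketogenesis 3 rose and 6 fell (median -0.02). THRSP, a lipogenic regulator, read 6.22 and 5.61 CPM with DMSO and 11.1 and 12.3 CPM with PB (log2 0.93). G0S2, which inhibits the lipase of lipid droplets, fell from 64.5 and 67.4 to 45.7 and 45.7 CPM (-0.53), and GPAM, the first enzyme of triglyceride synthesis, fell by 0.30. Neither list moved in a single direction, and 2 rises and 2 falls of the first and 1 and 2 of the other were called in all 14 fits.

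Of 19 genes of glucose output and glycogen 2 rose and 4 fell (median -0.07), 1 and 1 of them in all 14 fits. The falls numbered 1 to 4 with 1 KO library left out and 7 with libraries scaled to the same total. G6PC, which releases glucose from glucose 6-phosphate, fell from 101.6 and 97.1 to 61.4 and 61.1 CPM (log2 -0.69, adjusted p = 9.28e-09). PCK1, which commits carbon to glucose, rose from 15.9 and 16.4 to 21.3 and 22.4 CPM (0.42, adjusted p = 0.000462). So the 2 best-known genes of the pathway went opposite ways. Among hypoxia-induced and glycolysis genes falls prevailed, 13 of 34 against 1 rise (median -0.14), 6 of the falls in all 14 fits. NDUFA4L2, a mitochondrial protein induced by low oxygen, read 6.31 and 6.98 CPM with DMSO and 3.08 and 2.14 CPM with PB (-1.21). PFKFB3, which drives glycolysis, fell from 86.5 and 83.9 to 58.2 and 59.1 CPM (-0.54), and the carbonic anhydrase CA9 from 179 and 171 to 135 and 133 CPM (-0.39). The other carbonic anhydrase of the list, CA12, was the one that rose (0.49).

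Amino acid breakdown rose widely: 17 of 33 genes of the urea cycle and amino acid catabolism were higher and 2 lower (median 0.20), with 10 rises and 0 falls in all 14 fits. PRODH2, a hydroxyproline dehydrogenase, read 30 and 28.7 CPM with DMSO and 65.3 and 62.7 CPM with PB (log2 1.11). CTH, which makes cysteine, read 5.7 and 7.09 CPM and then 11.1 and 11.5 CPM (0.78). In both genes the PB libraries were well above the DMSO libraries. Targets of ATF4, the factor of the amino acid shortage response, rose in 16 of 34 and fell in 0 (0 before adjustment in limma), median 0.22, with 8 rises in all 14 fits. After SLC7A11 the largest rises were those of CHAC1, which breaks down glutathione (0.69, not in all 14 fits), PHGDH, the first enzyme of serine synthesis (0.66), and ASNS, which makes asparagine (0.64). Endoplasmic reticulum chaperones and membrane genes did not go along, with 3 of 35 higher (median 0.02) and 0 rises in all 14 fits.

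By count of genes, secreted plasma proteins also tended upwards, 16 of 45 higher and 2 lower (median 0.12), 10 and 1 of them in all 14 fits. With libraries scaled to the same total 13 were higher and 3 lower. Their summed signal did not rise, at 6.94 and 6.89% of a library with DMSO and 6.69 and 6.72% with PB. FETUB, a protease inhibitor, read 12.3 and 13.1 CPM with DMSO and 25.6 and 26.5 CPM with PB (log2 1.01). The heparin cofactor SERPIND1 rose by 0.74 and the histidine-rich glycoprotein HRG by 0.59. IGFBP3, a binding protein of insulin-like growth factors, fell from 161 and 175 to 102 and 105 CPM (-0.70). Albumin (ALB) was uncalled (-0.07, adjusted p = 0.249). Of 30 acute phase and inflammation genes 7 rose and 2 fell (median 0.04; 4 and 1 in all 14 fits), with SERPINA1, the elastase inhibitor, up by 0.27, the copper carrier CP up by 0.26 and the chemokine CXCL2 down by 0.44. Of 33 interferon-induced genes 1 rose and 0 fell (3 and 0 before adjustment in limma). The share of rises, 3.03%, was near the 3.87% of all loci. The 1 rise was not called in all 14 fits.

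Genes of division and translation moved little. Of 38 cell cycle genes 4 rose and 0 fell (12 and 0 before adjustment in limma; median 0.09), with TOP2A, which untangles DNA, higher by 0.31 in all 14 fits. Of 25 targets of p53 1 rose. Of 58 ribosomal protein genes 12 rose and 0 fell (29 and 0 before adjustment in limma), median 0.08, the largest list member change being 0.20. None of the 12 was called in all 14 fits, 1 to 7 ribosomal protein genes rose with 1 KO library left out, and 5 did with libraries scaled to the same total. Of 12 mitochondrially encoded transcripts 0 passed in limma, with 2 higher and 2 lower at an unadjusted p under 0.05. Of 7 histone genes 1 fell (median -0.23). The loci of RNA5-8S5, copies of the 5.8S ribosomal RNA that share their reads, had 8 of the 13 falls of at least 2-fold. The copy with the highest mean read 9.74 and 13 CPM with DMSO and 3.14 and 6.11 CPM with PB (log2 -1.26, adjusted p = 0.000703). With CITCO in KO cells it read 3.385 and 4.62 CPM, also called lower than with DMSO (log2 -1.399). In WT cells it read 4.796 and 5.767 CPM with DMSO and 5.95 and 6.412 CPM with PB. Both KO DMSO libraries thus lay above the libraries of these other groups. Whether the falls reflect PB or a high level in the KO DMSO libraries was not tested. These RNAs depend on how a library was made, and their part in other results was not tested.

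Markers of other cell types changed by small counts. In bulk samples fewer cells of a type and less RNA per cell cannot be told apart. Of 17 biliary and progenitor markers 2 rose and 4 fell (median -0.12). MUC13, a mucin, read 19.65 and 19.84 CPM with DMSO and 12.16 and 11.07 CPM with PB (log2 -0.74), and SOX4, a progenitor factor, 38.5 and 42 CPM and then 26 and 27 CPM (-0.59), while CD24, a surface marker, rose by 0.30. Of 19 mesenchymal and matrix markers 1 rose and 4 fell (median -0.06), their sum being 1.01 to 1.05% of the signal with DMSO and 1.02 to 1.04% with PB. The falls included those of CTGF (-0.66), THBS1 (-0.38) and CYR61 (-0.30), which are also induced by growth factors, and the matrix genes DCN and COL1A1 were uncalled. The rise was that of COL3A1 (0.38), a collagen, lost without KO PB replicate 2 (adjusted p = 0.0582, with a range of 0.00075 to 0.0582 over all settings). Of 19 endothelial and immune markers 5 were tested. CD14, a lipopolysaccharide receptor of monocytes that hepatocytes also make, rose from 7.23 and 6.14 to 18.8 and 17.6 CPM (1.38), the integrin ITGAM by 0.71, and KDR, a receptor for vascular growth factor, fell by 0.46. The 5 came to 0.0108 to 0.0114% of the signal with DMSO and 0.00967 to 0.00986% with PB, and PTPRC and CD68 were not analysed here. The part of other cell types in the gene groups above was not tested.

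**Figure D4:**
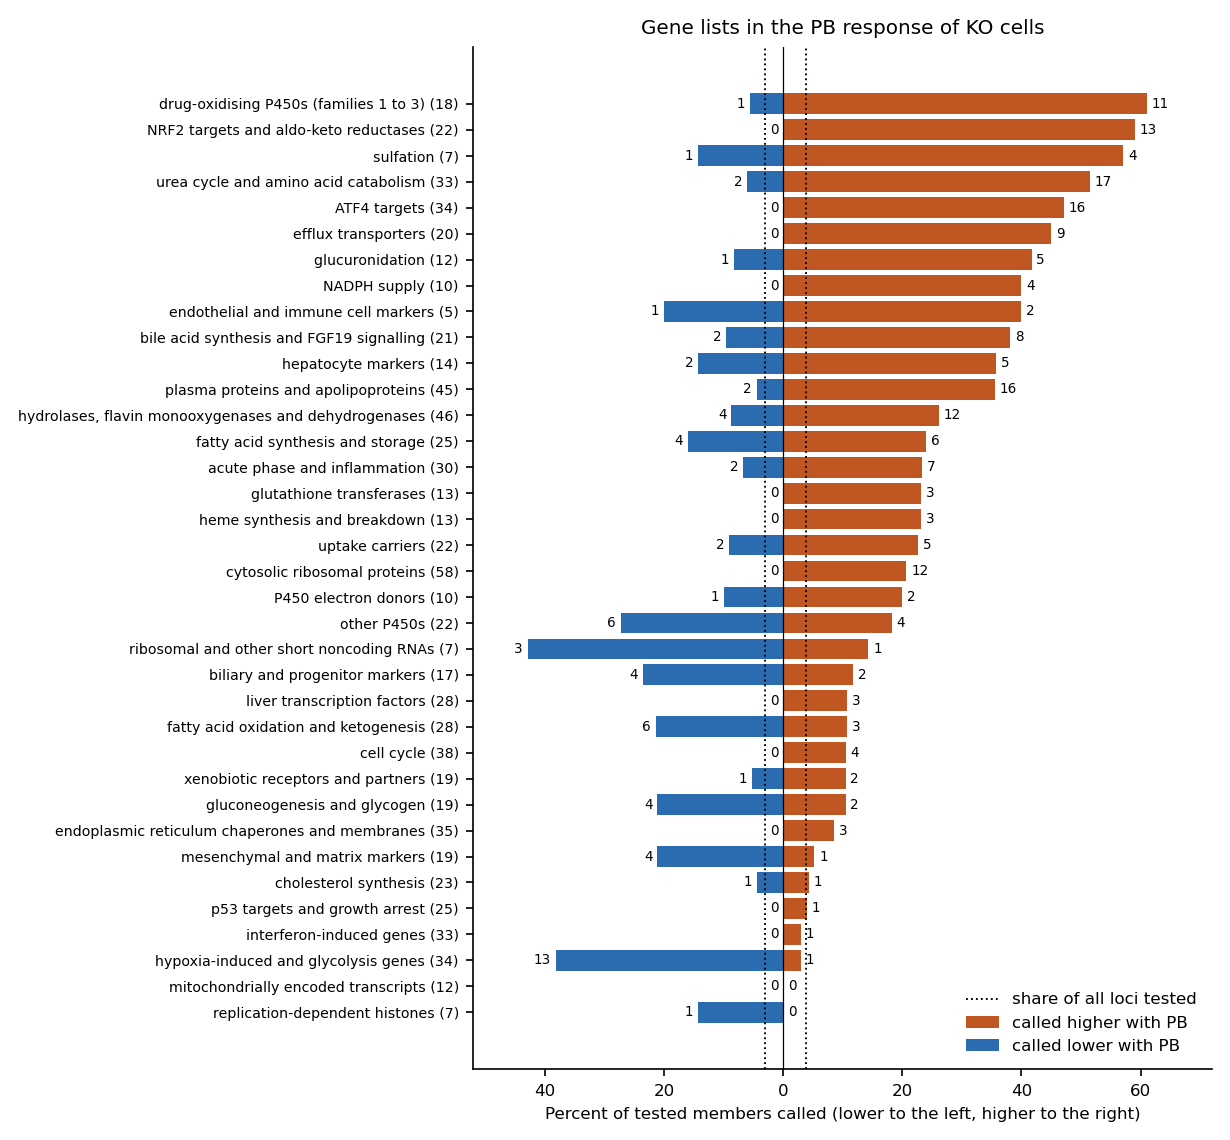
Percent of the tested members of each of 36 gene lists (number tested in brackets) called higher with PB to the right and lower to the left, with the count at each bar's end. Dotted lines mark the shares of all loci, 3.87% and 3.09%. Over 50% were called higher in the lists of P450s of families 1 to 3, NRF2 targets with aldo-keto reductases, sulfation and amino acid catabolism. Among hypoxia and glycolysis genes 38.2% were called lower.

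Outside the lists, the largest rises held genes of several kinds. FOXN4, a forkhead factor of retina and spinal cord, read 1.22 and 0.942 CPM with DMSO and 7.54 and 7.53 CPM with PB (log2 2.35, adjusted p = 1.13e-08). FBXW10, of the F-box family, rose from 2.61 and 1.94 to 7.52 and 6.98 CPM (1.49), MSX1, a homeobox factor, from 5.29 and 6.59 to 16.2 and 16.9 CPM (1.42) and PNLIPRP2, a pancreatic lipase relative, from 2.29 and 1.86 to 6.12 and 6.41 CPM (1.40). Among falls, IGFBP5 went from 4.95 and 5.87 to 2.97 and 2.68 CPM (-0.83). MRC1, the macrophage mannose receptor, fell by 0.82 (adjusted p = 0.0144), a call lost without KO DMSO replicate 2 (0.173), KO PB replicate 1 (0.0939) or KO PB replicate 2 (0.124). Over all settings its adjusted p ran from 0.000857 to 0.173.

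The threshold itself separated near-equal values. CASC5 (0.30, adjusted p = 0.0492), MT-TL1 (-0.25, 0.0495) and MIIP (0.38, 0.0499) lay just inside it, and MGST1 (0.12, 0.0502), RPSA (0.11, 0.0502) and ATP11A (-0.15, 0.0503) just outside.

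The KO response was then tested against that of WT cells given PB, as the difference of the 2 log2 changes. It differed at 159 of 15792 loci (1.01%), 126 with the higher change in KO (0.798%) and 33 with the lower (0.209%). Without KO DMSO replicate 2 the count was 82, without KO PB replicate 1 it was 66 and without KO PB replicate 2 it was 71. Of the 611 rises in KO cells 234 were also called rises in WT cells (38.3% of the KO and 55.7% of the WT rises), and of the 488 falls 234 (48% and 39.4%). PB changed 1014 loci in WT cells (6.42%). Opposite directions were called at 10 loci, 0.91% of the KO calls and 0.986% of the WT calls. Acute phase genes were among them: CP (0.26 in KO and -0.14 in WT cells), HP (0.15 in KO and -0.11 in WT cells) and CRP (0.15 in KO and -0.34 in WT cells), where the rises of HP and CRP were not called in all 14 fits. The genes below kept a called difference with any 1 of the 8 libraries left out unless stated.

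Among drug oxidising enzymes the difference went both ways. CYP2C8 rose by 3.06 in KO and 1.59 in WT cells (difference 1.47, SE 0.068, adjusted p = 6.93e-10), CYP3A7 by 3.54 and 2.1 and CYP2B6 by 4.50 and 3.60. CYP3A5 (1.18 and 0.72) also rose more in KO cells. CYP3A4 rose less, by 3.29 against 4.05 in WT cells (difference -0.76). The groups did not start level. With DMSO, CYP3A4 read 1080 and 1101 CPM in KO and 241.9 and 231.7 CPM in WT cells. CYP2B6 read 10.2 and 8.95 CPM in KO and 35.2 and 37.1 CPM in WT cells. For CYP2C8 it was 32.1 and 33.7 CPM in KO and 137 and 128 CPM in WT cells. With PB, mean levels were 10670 CPM in KO and 3928 CPM in WT cells for CYP3A4, and 595.8 and 287.5 CPM for CYP3A7. They were lower in KO cells for CYP2B6 (227.9 against 444.8 CPM), CYP2C8 (277.7 against 398.7 CPM) and CYP3A5 (393 against 535.6 CPM). FMO5 fell in KO cells alone by call, and its difference was tested (-0.86 against -0.02 in WT, difference -0.84, adjusted p = 9.05e-06). GPX2 rose less in KO cells (1.27 against 1.87), and HSD3B1 fell more (-1.20 against -0.27).

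Outside drug oxidation, ABCB1 (1.51 against 0.73), ALAS1 (1.06 against 0.45), AKR1D1 (2.04 against 1.17) and ALDH1A1 (0.89 against 0.36) rose more in KO cells. PCK1 (0.42 against -0.14) and G6PC (-0.69 against -0.30) differed in opposite directions. Several plasma proteins had the higher change in KO cells: HRG (0.59 against 0.17), SERPIND1 (0.74 against 0.17), CP (0.26 against -0.14) and SERPINA1 (0.27 against -0.03). Of the 45 plasma protein genes tested 10 had a called difference with the higher change in KO cells and 0 with the lower. Of the 30 acute phase genes 8 and 0 did. These counts are of the fit with all libraries. Among the plasma proteins FETUB did not keep its call in every fit with 1 library left out. A higher change was not always a rise, since IGFBP1 fell in both genotypes (-0.38 in KO and -1.19 in WT cells). Its fall in KO cells was not called in all 14 fits. POSTN, a matrix protein that fell by 1.30 in WT cells, was uncalled in KO cells (-0.28, adjusted p = 0.0815; difference 1.01). No difference passed for POR (0.19, 95% interval 0.05 to 0.33), CYP2A6 (0.15, 0.01 to 0.29), UGT1A1 (0.09, -0.01 to 0.19) or ABCC2 (0.20, 0.07 to 0.32), with intervals that are not adjusted for the number of loci.

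**Figure D5:**
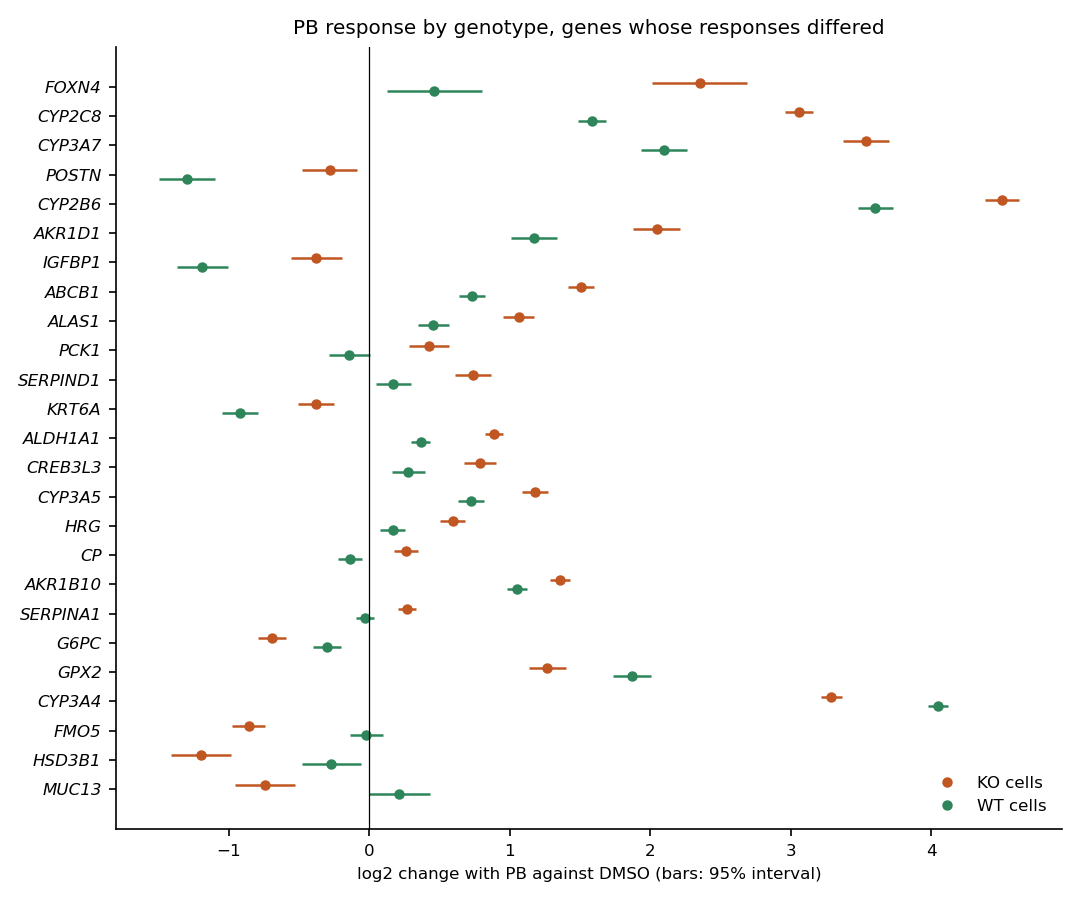
Log2 change with PB against DMSO (points, with 95% intervals) in KO cells (orange) and WT cells (green) for 25 named genes whose responses differed with any 1 library left out. Intervals of the 2 genotypes are apart in these genes, with FOXN4 and CYP2C8 at the top and FMO5, HSD3B1 and MUC13 at the bottom, ordered by the difference.

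KO cells given CITCO share the DMSO libraries with KO cells given PB, so their changes are only set side by side. CITCO changed 128 loci in KO cells (0.811%). For CYP2B6 the log2 changes were 4.50 with PB and 0.78 with CITCO, for CYP3A4 3.29 and 1.22, for CYP3A7 3.54 and 1.04 and for CYP2C8 3.06 and 0.51. CYP2A6 (1.52 and 0.05), POR (1.10 and 0.10), ALAS1 (1.06 and 0.07) and ABCB1 (1.51 and 0.11) were called with PB and not with CITCO. CYP1A1 (0.32 and 4.30) and CYP1A2 (0.15 and 1.86) were called with CITCO and not with PB, and ALDH3A1, an aldehyde dehydrogenase known to respond to dioxins, with both (0.34 and 1.17). The difference between the agents was not tested, and the sources used here give no doses.

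The authors' deposited table of this comparison holds 14161 loci, of which 1325 have an FDR under 0.05, 724 higher and 601 lower. Of these 1325, 942 were called here, all 942 with the same sign, and 57 loci called here are not among its 14161.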

How the data were processed

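RNA from HepaRG cells was sequenced on Illumina libraries, per the labels' protocols. The submitters' processing notes list edgeR 2.12, Cuffdiff 2.1.1, Cufflinks 2.1.1, TopHat2 2.0.10 and Bowtie 1.0.0 without saying what each did, and both GRCh37 and GRCh38. The deposited values are a normalized signal that the authors call CPM. Library totals run from 900290 to 1113721, which shows a normalization factor in each library size. The plan had assumed plain CPM or counts. Dividing each library by its smallest step gave whole reads for all values (within 0.001 reads), but a general check did not accept this for the KO columns, so no count model was run. The authors' deposited table of the comparison gives log2 fold changes and FDR p-values, used only for counts of shared calls.

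Loci that reached 1 CPM in 2 or more libraries were fitted with limma 3.58.1 (R 4.3.3) on log2(CPM + 0.5), with a variance trend, 6 group means and 6 residual degrees of freedom, and Benjamini-Hochberg adjustment over 15792 loci. Adjusted p-values are limma's. Data were made with known changes and the real depths, for KO PB against KO DMSO over 15761 loci. The changes were set only at loci with a KO DMSO mean of at least 5 CPM. All loci had 1 fixed overdispersion (spread beyond counting noise) of 0.002. In these made data 74% of 1.25-fold changes and 100% of 1.5-, 2- and 4-fold changes were recovered, and 4.592% of calls were false. These rates need not hold for the real libraries, whose spread was not modelled. Promoters were aligned with Biopython 1.88. Files hold no coordinates: names, gene order and windows are RefSeq's (GRCh38.p14), with windows for 9951 of 15741 symbols.

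Members, the 36 gene lists, tests and settings were chosen with earlier results of these data known. Named genes were a fixed set, the 15 largest calls per direction with a mean of at least 5 CPM and groups that do not overlap, up to 3 per direction in each list, up to 6 per direction for the difference from WT, and the 3 nearest each side of the threshold. A few genes under this rule are not reported here. Genes beyond it were named after their values were seen.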

Additional observations from a re-analysis of the deposited data

Results flagged for a closer look

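The log2 change with PB in KO minus that in WT cells passed limma's test of the difference itself for the following named genes. The gap test for a sample that stands apart needs at least 4 samples in a group. It could not be applied to these groups of 2.

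A higher change in KO cells was found for P450 enzymes CYP2C8 (1.47), CYP3A7 (1.44), CYP2B6 (0.90), CYP3A5 (0.46) and CYP2C18 (0.27). In drug handling and its supply it was found for the pump ABCB1 (0.78), the heme gene ALAS1 (0.61), the dehydrogenase ALDH1A1 (0.52), the hydrolase EPHX1 (0.25), AKR1D1 (0.87) and AKR1B10 (0.31). Secreted proteins with a higher change were HRG (0.43), CP (0.40), SERPINA1 (0.30), SERPIND1 (0.57), FETUB (0.48), IGFBP1 (0.81) and POSTN (1.01). Regulators and metabolic genes were FOXN4 (1.89), CREB3L3 (0.51), THRSP (0.65), PCK1 (0.57), SLC27A5 (0.42), SLC38A4 (0.40) and PNLIPRP2 (1.18). KRT6A (0.54), CD24 (0.35), TOP2A (0.46) and the noncoding RP11-14C10.5 (1.04) complete them.

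A lower change in KO cells was found for CYP3A4 (-0.76), CYP2E1 (-0.49), FMO5 (-0.84), HSD3B1 (-0.93), GPX2 (-0.60), G6PC (-0.39), MUC13 (-0.96), SPP1 (-0.45), IGFBP5 (-0.82) and RNA5-8S5 (-1.49). For RNA5-8S5 both KO DMSO libraries lay above those of KO PB, KO CITCO, WT DMSO and WT PB. The part of that high level in its difference was not tested.

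With 1 library left out, the difference lost its call in at least 1 of 8 fits for CYP2E1, CYP2C18, PNLIPRP2, RNA5-8S5, IGFBP5, EPHX1, SLC38A4, SLC27A5, THRSP, FETUB, TOP2A, CD24, SPP1 and RP11-14C10.5. The largest adjusted p among those fits was 0.291, for THRSP.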

How the results depend on the processing

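The count of 1099 changed loci was 612 with a constant prior variance and 523 to 671 with 1 KO library left out. Fits with a library left out keep a single library in that group, which is assumed to vary like the other groups. Fitting only the libraries compared gave 1501. Scaling every library to the same total gave 1187, of which 40.4% were higher against 55.6% with the deposited scaling, and moved the median of all loci to -0.03. Other settings (pseudocounts 0.1 and 1, 2 filters, median-of-ratios scaling, robust empirical Bayes) gave 1084 to 1161. The count of 159 loci with a different response in WT cells was 25 with a constant prior variance, 84 when the libraries outside the comparison were dropped and 66 to 213 with 1 library left out.

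Samples that share a replicate number deviated together weakly (r from -0.08 to 0.29 over 15 pairs of groups, 4 over 0.1, and 0.18 for KO DMSO and KO PB). The main fit left the numbers out, and such weak values cannot exclude that they pair the samples. With the replicate block the counts were 1105 and 153.

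Uncalled genes changed direction with 1 library left out: CYP1A1 (-0.07 to 0.72, negative without KO PB replicate 1), CYP1A2 (-0.17 to 0.48, negative without KO PB replicate 1 or, at -0.13, KO DMSO replicate 2) and MT-CO1 (-0.05 to 0.04, positive without KO DMSO replicate 1 or, at 0.03, KO PB replicate 1). No named call reversed under the settings run. The planned edgeR and DESeq2 fits were not run, because the general check did not accept whole reads in the KO columns. Loci near 1 CPM rest on few reads, and the pseudocount compresses their changes. Where a count moved, the cause was not tested.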

Other observations

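Further genes outside the lists were called in all 14 fits with PB in KO cells. They were picked after their values were seen. TSKU, a secreted leucine-rich protein, read 220 and 204 CPM with DMSO and 511 and 492 CPM with PB (log2 1.24), and ANO1, a chloride channel, 11.3 and 9.39 CPM and then 28.3 and 27.4 CPM (1.39). ETNPPL, which breaks down phosphoethanolamine, rose from 6.31 and 7.3 to 18.9 and 18.1 CPM (1.38), and ALPI, intestinal alkaline phosphatase, from 8.95 and 8.96 to 24.8 and 21.4 CPM (1.32). DIO1, which activates thyroid hormone, rose by 0.70, and CDO1, which oxidises cysteine, by 0.79. The NRF2-responsive PIR rose by 0.82.

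Falls outside the lists held signalling genes. NPR1, the receptor of atrial natriuretic peptide, read 42.9 and 39.9 CPM with DMSO and 25 and 26.7 CPM with PB (log2 -0.67), and the kinase scaffold AKAP12 163 and 156 CPM and then 103 and 99.4 CPM (-0.66). ID2, an inhibitor of basic helix-loop-helix factors, fell by 0.61, the collagen COL8A1 by 0.56 and the zinc finger factor KLF6 by 0.49. In WT cells the log2 changes with PB were -0.41 for NPR1, -0.10 for AKAP12 and -0.35 for ID2.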
